A study of Mus musculus with 2 samples.

Results

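The cells described here are 347 tumour cells that carried many Rspo3 transcripts in a mouse tumour engineered to overexpress this gene. They were chosen from single-cell RNA sequencing of tumours of MC38, a mouse colon carcinoma cell line, grown in C57BL/6 mice. One library, of genotype MC38-RSPO3-OE, came from cells that overexpress RSPO3, and the other, MC38-Ctrl, came from control cells. The labels name the tissue a xenograft, although the line is of the host's species. How many mice were used, where and for how long the tumours grew, which promoter drives the construct and whether the line is 1 clone are not stated in the sources used. Each group had 1 library, so differences have no replicate check and no p-value. Cells of 1 tumour library are not replicates, and every interval below is a 95% interval that covers counting error only.

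A tumour cell was defined as a barcode with no unique molecular identifier (UMI, 1 counted transcript molecule) of the leukocyte gene Ptprc, at least 1 UMI of Hmga2, an oncofetal chromatin protein, and fewer than 10 UMIs of the macrophage complement genes C1qa, C1qb and C1qc together. Of 14615 barcodes in the series, 4213 in the RSPO3-OE library met this rule. The 347 cells with at least 10 Rspo3 UMIs are called Rspo3-high, and they made up 8.24% of the tumour cells of that library (exact interval 7.42 to 9.11%). The reference was the 3225 tumour cells of the same library with 0 Rspo3 UMIs and at least 10000 UMIs in all. A further 589 tumour cells had 1 to 9 Rspo3 UMIs, and 52 had none but were too shallow for the reference. By the same rule 4318 Ctrl barcodes were tumour cells, of which 0 were Rspo3-high, which, at 3 counts, allows a share of up to 0.0695%. The Ctrl tumour cells of at least 10000 UMIs, 3809 in number, serve as a further level below, from another library.

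R-spondins are secreted proteins that bind the receptors LGR4, LGR5 and LGR6 and take the ubiquitin ligases RNF43 and ZNRF3 off the cell surface. Frizzled and LRP receptors are then no longer degraded, and a cell responds more strongly to Wnt ligands, through beta-catenin and the TCF/LEF factors. In the intestine RSPO3 comes mainly from stromal cells and sustains the stem cells at the crypt base, and fusions that activate RSPO3 occur in a part of colorectal cancers. Because the protein is secreted, cells that carry the transcript and cells that receive the protein need not be the same.

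The Rspo3 transcript was very unevenly spread over the tumour cells. The Rspo3-high cells held 10531 Rspo3 UMIs, 72.2% of the 14589 in all kept barcodes of the library, and this sum was 971 CPM, a gene's UMIs divided by all UMIs of the group in the usual scaling of counts per 1000000. In the mm10 annotation the gene lies at chr10:29452416-29535867 on the minus strand. Single Rspo3-high cells ranged from 10 to 179 Rspo3 UMIs with a median of 22, or from 1.69 to 52.0 with a median of 8.23 per 10000 UMIs of the cell. The 35 cells with the most held 28.6% of the group's Rspo3 UMIs. In the Ctrl library 2 Rspo3 UMIs were counted over all barcodes and 0 in tumour cells, which allows up to 0.0282 CPM there. These values chose the cells, and they are given as a description. The cut lay inside a continuous range: the 32 cells with 10 or 11 Rspo3 UMIs stood at 349 Rspo3 CPM with a median of 27326.5 total UMIs, and the 56 cells with 8 or 9 stood at 284 CPM with a median of 27100.

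Depth moved with membership. The Rspo3-high cells had a median of 28691 UMIs (3178 to 85882) and 5013 genes, the reference cells 24914 UMIs (10097 to 86124) and 4693 genes. When the tumour cells were split by depth into 4 equal parts, 5.69% of the shallowest were Rspo3-high, then 6.64%, 8.17% and 12.4% of the deepest. A UMI of Rspo3 was present in 22.2% (21.0 to 23.5%) of all tumour cells, and in 17.3% of the 4150 deep enough to be thinned at random to 10000 UMIs each. After thinning, 91.8% of the Rspo3-high cells still had 3 or more Rspo3 UMIs. Barcodes with Ptprc and at least 50 C1q UMIs, which should be macrophages, had an Rspo3 UMI in 2.09% (1.34 to 3.09%) of 1151 cases, at a median of 12559 UMIs against 25512 in tumour cells. Whether the 0 in a reference cell means no transcript or a missed one cannot be told apart, and the counts do not separate Rspo3 of the construct from Rspo3 of the cell's own gene.

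**Figure D1:**
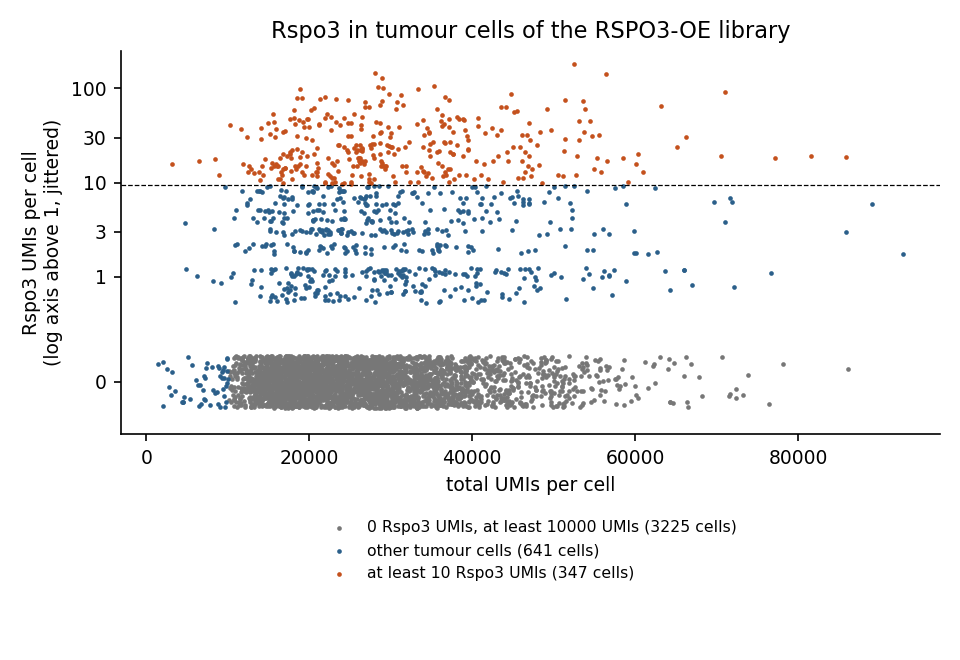
Rspo3 UMIs per cell (log axis above 1, points jittered) against total UMIs per cell (linear axis) for each tumour cell of the RSPO3-OE library, with the limit of 10 Rspo3 UMIs as a dashed line. The 347 Rspo3-high cells hold 10 to 179 Rspo3 UMIs and extend over the same depths as the cells below the limit.

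The label of tumour cell was checked against markers of other cells. Hmga2, which the rule required, stood at 362 CPM in Rspo3-high cells (median 8 UMIs per cell), 345 CPM in the reference and 264 CPM in Ctrl tumour cells. The 8 macrophage markers summed to 72.4 CPM in Rspo3-high cells against 74.5 in the reference, with C1qa at 8.48 against 8.42, which the rule limits in every cell of both groups. Neutrophil markers summed to 1.94 against 1.58 CPM, T cell markers to 1.11 against 1.27, B cell markers to 5.44 against 7.83, and endothelial markers to 14.8 against 16.5, with Kdr and Cldn5 at 0 in Rspo3-high cells. Y-linked genes, which would mark cells of a male host, summed to 0.09 against 0.32 CPM. NK cell markers stood at 0.65 against 0.14 CPM, all but 1 UMI from Gzma (7 and 11 UMIs), with Ncr1 and Klrb1c at 0 in Rspo3-high cells. Dendritic cell markers summed to 0.18 against 0.31 CPM, and erythroid markers had 2 UMIs in each group. Fibroblast markers summed to 1301 against 2448 CPM, but they include Dcn, which MC38 tumour cells of both libraries also expressed, at 1160 CPM in Rspo3-high cells, 2305 in the reference and 1625 in Ctrl. Mitochondrial transcripts made up a median of 2.53% of UMIs against 2.90%, and 3 Rspo3-high cells (0.865%) and 25 reference cells (0.775%) were marked as doublets. The libraries shared 7 barcodes, of which 0 were Rspo3-high and 6 were in the reference.

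Across the transcriptome the Rspo3-high cells differed little from the reference, apart from a small set of genes. UMIs were summed over the cells of each group, and 9066 genes with a mean of at least 5 CPM were measured. Of these, 91 (1.0%) were at least 1.5-fold higher and 137 (1.51%) at least 1.5-fold lower in Rspo3-high cells, and 19 and 23 passed 2-fold. The counting interval excluded a ratio of 1 for all 91 and all 137. The limits of 5 CPM and 1.5-fold make this nearly certain at these totals, so it is no further support for the genes. The median log2 ratio over all measured genes was -0.02. The lower side was led by Mgp and other genes of secreted matrix proteins. The higher side held replication-dependent histone genes, 20 of the 91, and genes such as Klf5, Slc16a3, Fat1 and Esm1.

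Many of these genes also mark cell states that the Rspo3-high cells occupied unequally, so 2 further values stand beside the ratios. One compares with a reference weighted to the depth of the Rspo3-high cells, under which 55 of the 91 higher and 63 of the 137 lower genes stayed past 1.5-fold and all kept their side. The other uses a reference weighted to the 7 clusters described further on, under which 10 of the 91 and 13 of the 137 stayed past 1.5-fold, while 78 and 125 kept their side. The clusters were made from the same transcripts, Rspo3 left out, and so part of any difference in these genes was used to draw them.

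**Figure D2:**
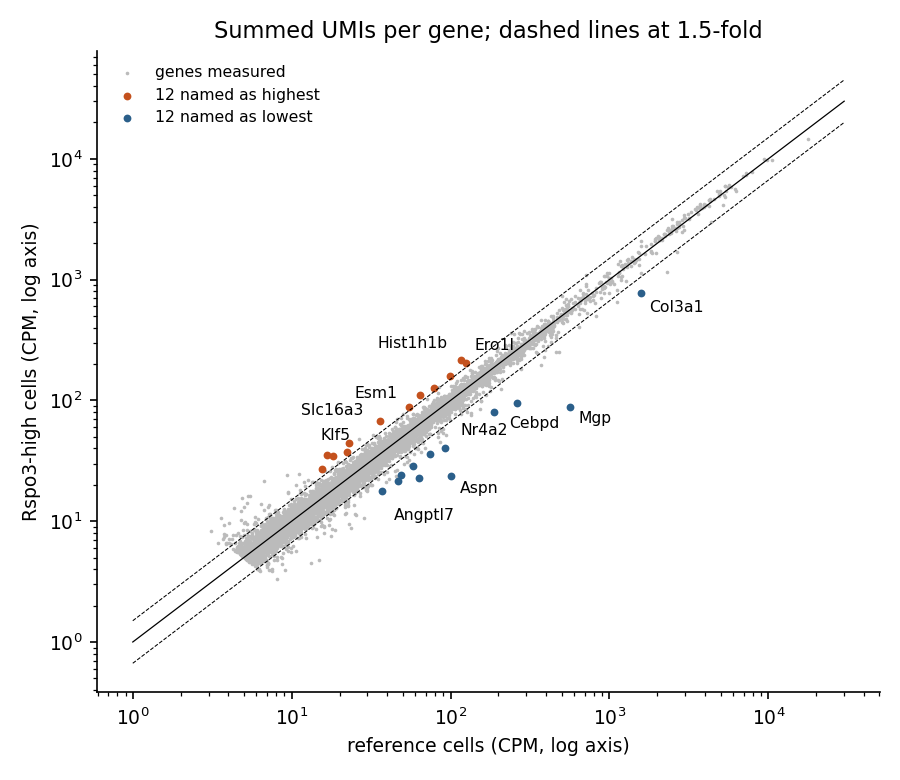
Summed UMIs of each measured gene in Rspo3-high cells against reference cells, in CPM on log axes, with dashed lines at 1.5-fold. Most of the 9066 genes lie between the lines, and of the 12 genes named as highest and 12 as lowest Mgp, at 88.9 against 568 CPM, lies farthest from the diagonal.

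Within the Wnt pathway, on which R-spondin acts, Lgr4 and Znrf3 stood close to the reference and the feedback genes Axin2 and Apcdd1 stood above it. No other R-spondin was detected: Rspo1, Rspo2 and Rspo4 had 0 UMIs in Rspo3-high cells, where a count of 0, taken as at most 3, allows a level of up to 0.277 CPM. Of the receptors, Lgr4 was detected at similar low levels, 5.81 CPM in Rspo3-high cells, 6.05 in the reference and 4.63 in Ctrl, a log2 ratio to the reference of -0.06 (-0.46 to 0.32). Lgr5, the intestinal stem cell receptor, had 0 UMIs in both groups. Lgr6 had 11 and 37 UMIs, or 1.01 and 0.43 CPM, with a log2 ratio between 0.13 and 2.25. Znrf3, the ubiquitin ligase that R-spondin removes and that is itself induced by Wnt, stood at 6.54 against 6.21 CPM with a log2 ratio of 0.08 (-0.30 to 0.44). The related ligase Rnf43 had 7 and 40 UMIs, 0.65 and 0.46 CPM, which leaves its log2 ratio between -0.92 and 1.66.

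Feedback genes of the pathway were present at very low levels, and only 3 of the 13 on the list were measured. Of these 1 was higher, Apcdd1, and none lower, against 1.0% and 1.51% over all genes. Apcdd1 passed the mean of 5 CPM only through its level in Rspo3-high cells, so the count is partly set by that limit. Axin2, a scaffold of the destruction complex and a widely used Wnt feedback gene, had 33 UMIs in 25 of the 347 cells (7.20%, with at most 3 UMIs in a cell) against 78 UMIs in 59 of 3225 reference cells (1.83%). Its level was 3.04 CPM against 0.90, with 0.86 in Ctrl tumour cells, a log2 ratio to the reference of 1.76 (1.13 to 2.36). That level is below the 5 CPM set for measured genes, and Axin2 is therefore not among the 91. Apcdd1, a membrane inhibitor of Wnt signalling, stood at 8.30 against 3.098 CPM and 3.02 in Ctrl, a log2 ratio of 1.42 (1.06 to 1.77). It was found in 14.4% of Rspo3-high and 5.64% of reference cells. Lef1, a transcription factor that partners beta-catenin, stood at 2.58 against 1.38 CPM, but at 4.60 CPM in Ctrl. Tcf7, of the same family, was at 6.54 against 5.70 CPM. Kremen1, a receptor of the Wnt inhibitor Dickkopf, stood at 12.7 against 15.2 CPM (log2 ratio -0.26). Among macrophage barcodes of the library 0.521% had an Axin2 UMI and 1.13% an Apcdd1 UMI.

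The higher Axin2 and Apcdd1 levels followed depth little and cluster more. Against the depth-weighted reference the log2 ratio was 1.72 for Axin2 and 1.26 for Apcdd1. Against the cluster-weighted reference it was 0.84 for Axin2 and 0.35 for Apcdd1. Clusters 5 and 6 held 19 and 11 of the 33 Axin2 UMIs of Rspo3-high cells, and there the Axin2 level was 4.87 against 3.17 CPM and 11.8 against 4.21 CPM. In cluster 5 the log2 ratio of Axin2 had an interval of -0.31 to 1.53, in cluster 6 of 0.31 to 2.56. The other 5 clusters had 0 or 1 Axin2 UMI each in Rspo3-high cells, too few to compare.

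Further along the pathway the differences were small (over all genes 1.0% were higher and 1.51% lower). Of 14 measured genes of beta-catenin and its destruction complex none passed 1.5-fold in either direction, with a median log2 ratio of -0.06, and the same held for 7 Frizzled and LRP receptors, with a median of 0.04. Of 12 measured Wnt target genes 1 was higher, Sox4, a transcription factor, at 77.2 against 50.1 CPM and 121 in Ctrl. None was lower, and the median was 0.13. The widely cited targets Myc and Ccnd1 had log2 ratios of 0.15 and 0.09. Of 6 measured genes of Wnt ligands and their secretion 2 were higher. Wnt5a, a ligand known mostly for signalling without beta-catenin, was at 31.0 against 19.5 CPM (log2 ratio 0.67, 0.50 to 0.84), and Wls, which carries Wnt proteins to the cell surface, at 8.30 against 5.45 CPM. With the cluster-weighted reference the ligand median moved from 0.44 to 0.12. Of 6 measured heparan sulphate proteoglycans, which hold R-spondins at the cell surface, Gpc4 was lower at 16.1 against 26.8 CPM and Sdc4 stood at 301 against 253 CPM.

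Matrix genes were the most clearly lower group. Mgp, matrix Gla protein, an inhibitor of calcification encoded at chr6:136872435-136875823 on the minus strand, stood at 88.9 CPM in Rspo3-high cells, 568 CPM in the reference and 58.2 CPM in Ctrl tumour cells, a log2 ratio to the reference of -2.68 (-2.77 to -2.58). After thinning, 19.8% of Rspo3-high, 40.2% of reference and 10.8% of Ctrl cells had an Mgp UMI. The reference was a mixture in which 286 cells (8.87%) held 50 or more Mgp UMIs and 1601 (49.6%) held none, while 1 Rspo3-high cell (0.288%) held 50 or more and 238 (68.6%) held none. That 1 cell held 235 UMIs, 24.4% of the group's Mgp, and without it the group stood at 67.3 CPM. The ninth decile of Mgp was 1.46 per 10000 UMIs in Rspo3-high cells and 20.6 in reference cells.

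Mgp was counted with the small leucine-rich proteoglycans, secreted proteins that bind collagen and growth factors, and 8 of the 9 measured members of that list were lower and none was higher, against 1.51% lower over all genes. Decorin, Dcn, stood at 1160 against 2305 CPM and asporin, Aspn, at 23.5 against 101 CPM, with 39.5 CPM of Aspn in Ctrl. Omd and Prelp had log2 ratios of -1.62 and -1.17, and Bgn, the member that did not pass, -0.46. The median of the list was -0.99, then -0.63 with the depth-weighted and -0.11 with the cluster-weighted reference. Of the 9, Mgp alone stayed past 1.5-fold lower with the cluster-weighted reference, at -1.20, while Lum, Ogn, Omd and Apod turned to the higher side, at 0.24, 0.26, 0.16 and 0.14. Lum had 99 and Ogn 264 UMIs in Rspo3-high cells, of which 1 cell held 34.3% and 15.9%, so these 2 turns rest on few cells.

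Collagen genes moved with them in part (over all genes 1.51% were lower and 1.0% higher). Of 16 measured collagen and matrix genes 4 were lower: Col3a1, the fibrillar collagen of loose tissue, at 776 against 1581 CPM and 579 in Ctrl; Col5a2 at 35.9 against 73.9 CPM; Col6a2; and fibronectin, Fn1, at 406 against 645 CPM. Thbs1, thrombospondin, was higher at 13.0 against 7.14 CPM. The median log2 ratio of this list was -0.43, then -0.21 with the depth-weighted and -0.04 with the cluster-weighted reference. With the cluster-weighted reference Col3a1 stood at -0.03, Col5a2 at -0.11 and Thbs1 at 0.42. The 12 lowest named genes also held Angptl7, a secreted angiopoietin-like protein, at 22.6 against 62.9 CPM, and complement C4b at 21.5 against 46.5 CPM. Of 10 measured proteases and inhibitors 3 were lower, Mmp2, Adamts1 and Adamts5, and 1 was higher, Mmp9, at 13.7 against 7.20 CPM. With the cluster-weighted reference the log2 ratio of Mmp9 turned from 0.93 to -0.16 and that of Adamts1 from -0.73 to 0.08. That of Mmp2 moved from -0.85 to -0.05. General mesenchymal genes did not follow as a group: 1 of 13 was lower, Lum, and Vim and Twist1 had log2 ratios of 0.01 and 0.00. Krt8, an epithelial keratin, stood at 622 CPM in Rspo3-high cells, 535 in the reference and 89.3 in Ctrl.

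Inducible transcription factors did not move one way. The 3 nuclear receptors of the NR4A family were lower: Nr4a2 at 79.8 against 186 CPM, Nr4a1 at 40.5 against 91.6 and Nr4a3 at 9.40 against 23.1. In Ctrl tumour cells they stood at 34.2, 33.0 and 1.31 CPM. Cebpd, a stress-responsive leucine zipper factor, was lower at 95.4 against 263 CPM, with a ninth decile of 3.53 against 10.8 per 10000 UMIs, and Fosl2 at 28.7 against 58.1 CPM. Fosb, of the same AP-1 family as Fosl2, was higher at 1089 against 713 CPM, and Fos, at 2069 against 1577 CPM, did not pass 1.5-fold. Over the 20 measured immediate early genes 1 was higher and 3 were lower, against 1.0% and 1.51% over all genes. Their median log2 ratio was -0.04. With the cluster-weighted reference Nr4a3 turned from -1.29 to 0.19, and Nr4a1, Nr4a2 and Cebpd stood at -0.50, -0.41 and -0.54. Nr4a3 had 102 UMIs in Rspo3-high cells, 14.7% of them from 1 cell.

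On the higher side the largest family was the replication-dependent histones, whose proteins pack newly made DNA in S phase. Genes of the histone clusters were taken by symbol alone. Of 25 measured, 20 were higher, against 1.0% over all genes, and none was lower. All 25 had log2 ratios above 0, with a median of 0.76. Their summed level was 1147 CPM in Rspo3-high cells, 715 in the reference and 1625 in Ctrl. Hist1h1b, a linker histone, stood at 214 against 116 CPM and Hist1h2ae at 110.2 against 64.3 CPM. The median was 0.50 with the depth-weighted and 0.38 with the cluster-weighted reference. Other S phase genes did not show this: of 24 measured none passed 1.5-fold, with a median of 0.10, and -0.02 with the depth-weighted reference. Histone genes have near-identical copies that share reads, so the values of single histone genes are uncertain.

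Of 26 measured genes of the G2 and M phases none passed 1.5-fold. All 26 had log2 ratios above 0, with a median of 0.34. Per cell thinned to 10000 UMIs, the list gave a median of 22 UMIs in Rspo3-high and 5 in reference cells, with ninth deciles of 84.8 and 72. With the depth-weighted reference the median log2 ratio was 0.06, and Mki67, Cdk1 and Top2a stood at -0.03, -0.09 and -0.10. Among cells whose cycle genes lay below the median of all tumour cells, 126 Rspo3-high and 1722 reference cells, the histone median was 0.49, but Hist1h2ap turned from 0.70 to -0.75 and Hist1h2ae from 0.78 to -0.03.

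Of 19 measured genes of low oxygen and glycolysis 2 were higher and none was lower, against 1.0% and 1.51% over all genes. The median log2 ratio was 0.29. Pdk1 and Hk2, glycolytic regulators, stood lowest, at 0.02 each. The 2 higher genes were Ero1l, an oxidase that helps proteins fold, at 205 against 125 CPM, and Bnip3, a mitochondrial hypoxia gene, at 128 against 84.6 CPM. The median was 0.33 with the depth-weighted and 0.11 with the cluster-weighted reference. Slc16a3, which exports lactate from glycolytic cells, stood at 67.6 against 36.1 CPM and 31.7 in Ctrl, and after thinning was seen in 36.4%, 21.1% and 21.1% of cells. The unfolded protein response list gave a median of 0.26 over 17 measured genes, of which 1 was higher, Chac1, a glutathione-degrading enzyme. Hspa1b, a heat shock protein whose near-identical copy Hspa1a shares reads with it, was higher at 17.5 against 9.46 CPM, and was at 78.8 CPM in Ctrl.

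The remaining named higher genes have different roles. Klf5, a transcription factor of dividing intestinal crypt cells, stood at 34.5 against 18.1 CPM and 23.3 in Ctrl. Esm1, a proteoglycan secreted by endothelial cells and some tumours, stood at 89.0 against 54.4 CPM, and at 124 CPM in Ctrl. Fat1, a giant cadherin at the cell surface, stood at 37.5 against 22.2 CPM and 13.2 in Ctrl. With the cluster-weighted reference the log2 ratios of Slc16a3 and Esm1 were -0.11 and -0.06 and that of Klf5 was 0.20, whereas Fat1 stood at 0.68 against 0.76 unweighted. Within the clusters Fat1 was higher in Rspo3-high cells in 7 of 7, past 1.5-fold in 5, but in cluster 5, which held the most Rspo3-high cells, it stood at 28.2 against 26.6 CPM (log2 ratio 0.09, -0.26 to 0.42).

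These genes were not all found in the same cells. After thinning, a UMI of at least 3 of the 12 highest named genes was present in 64.4% of Rspo3-high and 40.5% of reference cells, and of at least 6 in 25.7% and 10.4%. The 12 genes were chosen as highest from these same cells, so the larger shares in Rspo3-high cells follow in part from the choice. The pair found together most often relative to its single shares was Hist2h2ac and Hist1h2ae, in 56 of 343 Rspo3-high cells where the product of the shares gives 20.2.

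Of 17 measured genes of the interferon gamma response 2 were lower and none was higher, against 1.51% and 1.0% over all genes. Their median log2 ratio was -0.29, and -0.08 with the cluster-weighted reference. Iigp1, an immunity-related GTPase, stood at 229 against 386 CPM and 81.3 in Ctrl, and Gbp2, which did not pass, at 331 against 464 CPM. Of 16 type I interferon genes 2 were lower, against 1.51% over all genes, namely Ifit3 at 79.9 against 128 CPM and Ifit3b. The 14 measured genes of MHC class I presentation had a median of -0.01, none past 1.5-fold, with B2m at 2113 against 2154 CPM. Of 12 chemokines and cytokines 2 were lower, against 1.51% over all genes. Among them was Ccl7, which attracts monocytes, at 251 against 478 CPM and 71.7 in Ctrl. Ccl2, of the same family, stood at 2995 against 4381 CPM without passing. Ccl5, which attracts T cells, was higher at 363 against 240 CPM, but among cells low in cycle genes its log2 ratio turned from 0.60 to -1.64. Of its UMIs in Rspo3-high cells 19.5% came from 1 cell. After thinning, 28.9% of Rspo3-high and 29.1% of reference cells had a Ccl5 UMI. Checkpoint ligands, 7 measured, had a median of -0.13 with none past 1.5-fold, and Cd274, which encodes PD-L1, stood at 17.5 against 15.99 CPM.

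Several other lists had no member past 1.5-fold. The median log2 ratio was -0.14 over 13 measured genes of TGF-beta ligands and feedback, -0.10 over 12 genes of the NF-kB response, 0.04 over 15 of cholesterol synthesis and -0.01 over 6 of hyaluronan metabolism. It was 0.00 over 9 genes of the p53 response and cell cycle inhibitors, with Cdkn1a, which encodes the inhibitor p21, at 140.2 against 107 CPM. Of 11 measured YAP targets 1 was lower, F3, the coagulation tissue factor, and of 11 integrins and laminins 1 was lower, Lama4. Over all genes 1.51% were lower.

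**Figure D3:**
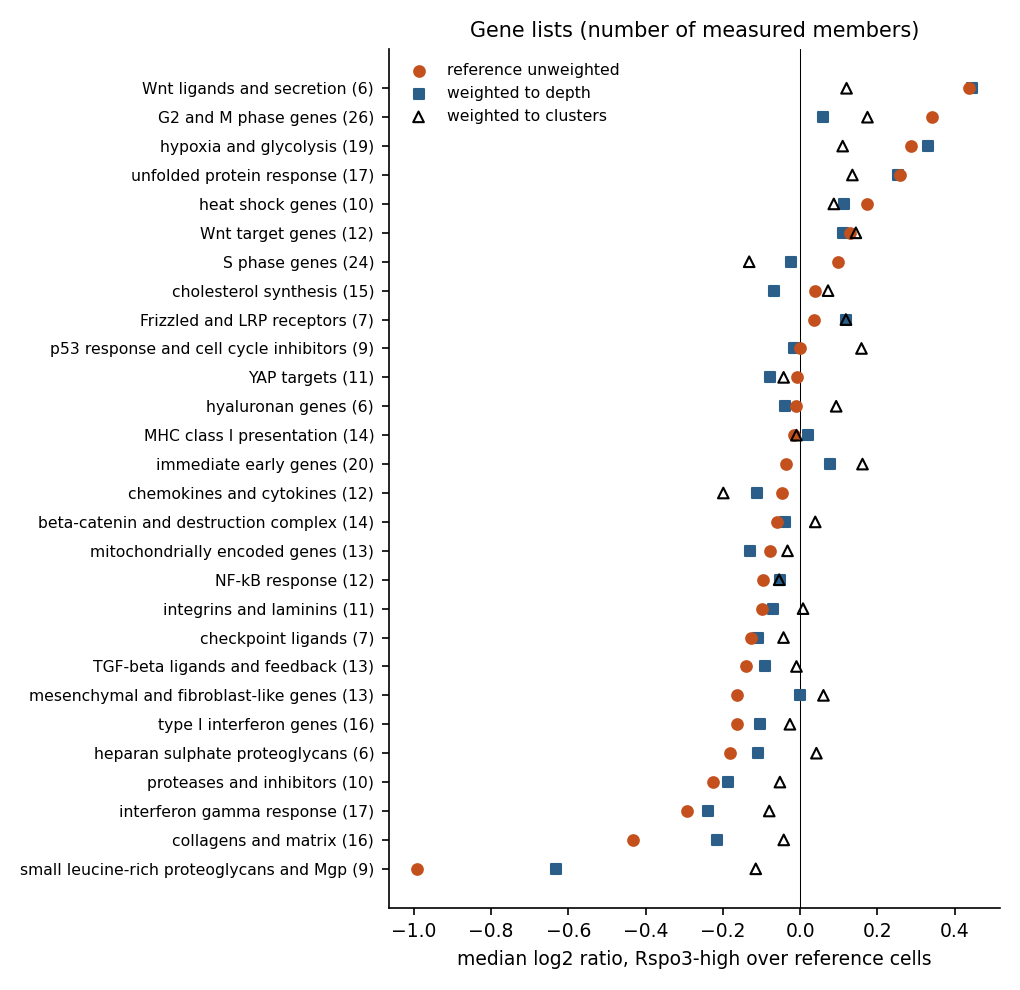
Median log2 ratio of Rspo3-high over reference cells for each gene list, with the number of measured members in brackets, for the unweighted, depth-weighted and cluster-weighted reference. The list of small leucine-rich proteoglycans and Mgp moves from -0.99 to -0.11 when the reference is weighted to clusters, and the G2 and M phase list moves from 0.34 to 0.06 when it is weighted to depth.

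Rspo3-high cells were found in all 7 clusters of tumour cells, but not evenly. The 4150 tumour cells of at least 10000 UMIs were clustered without Rspo3, and the clusters are named here by number and leading genes since their defining genes are no result. In cluster 5, led by Hdgfl3, Slc16a3 and Klf5, among others, 109 of 418 cells were Rspo3-high (26.1%, 21.9 to 30.6%). In cluster 4, led by Aspn, Omd, Nr4a3 and Mgp, 8 of 620 were (1.29%, 0.56 to 2.53%). The other 5 ranged from 5.52% in cluster 2, led by Lrrn4cl and Mustn1, to 10.9% in cluster 6, led by Fabp4, Hmox1 and Ero1l. Clusters 1 and 7, led by mitotic genes such as Nusap1 and Cdc20, had 7.08% and 7.66%, and cluster 3, led by replication genes such as Mcm3, 7.36%. Put the other way, cluster 5 held 31.8% of the Rspo3-high and 7.13% of the reference cells, and cluster 4 held 2.33% and 18.1%.

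Depth differed between the clusters, with a median of 16429.5 UMIs per cell in cluster 4, 19228 in cluster 6, 35139.5 in cluster 5 and 35182.5 in cluster 1. The Rspo3-high shares of these clusters, in the same order, were 1.29, 10.9, 26.1 and 7.08%, and the part of depth in these shares was not tested. The share with any Rspo3 UMI ran from 5.65% in cluster 4 to 45.0% in cluster 5. Rspo3-high cells of clusters 2, 5 and 6 carried a median of 10.1, 9.30 and 11 Rspo3 UMIs per 10000, and those of the mitotic cluster 1 a median of 5.41. In clusters 3, 4 and 7 the median was 5.33, 7.79 and 6.32. The limit of 10 Rspo3 UMIs asks for a higher rate in a shallower cell, so these rates are partly set by the rule. Rspo3-high cells of clusters 2, 5 and 6 had median depths of 20008, 34410 and 18717 UMIs, against 37175 in cluster 1. Their median Rspo3 UMIs were 22, 26 and 25.5 against 19.5. With a finer clustering into 12 groups the range was 0.933 to 24.9%.

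**Figure D4:**
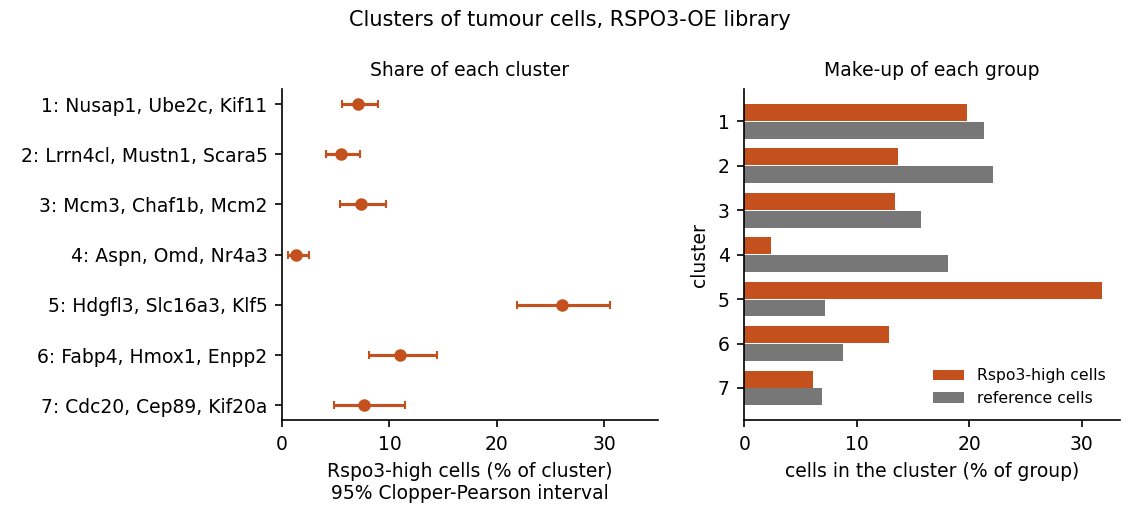
Left, share of Rspo3-high cells in each of 7 clusters of tumour cells, with exact 95% binomial intervals that cover counting error only; right, bars for the share of the Rspo3-high and of the reference cells that each cluster holds. Cluster 5 stands at 26.1% and cluster 4 at 1.29%, and the other 5 lie between 5.52 and 10.9%.

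Within clusters some of the differences were smaller and others were not. Mgp was lower in Rspo3-high cells in 7 of 7 clusters and past 1.5-fold in 4 of them. In cluster 6 it stood at 6.44 against 253 CPM and in the mitotic cluster 1 at 58.7 against 194 CPM, whereas in cluster 5 both groups were low, at 8.21 against 8.78 CPM. In cluster 4 the 8 Rspo3-high cells stood at 1932 CPM, and at 743 without the cell of 235 UMIs, against 3068 in the reference. Angptl7, Cebpd and Nr4a1 were also lower in 7 of 7, past 1.5-fold in 4, 3 and 4. Col3a1 was lower in 5 of 7 and passed 1.5-fold in none. Slc16a3 was higher in 3 of 7.

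The genes above were chosen from the ends of the Rspo3 range, and the cells in between were looked at next. Cells of at least 10000 UMIs were placed in bands of 0, 1 to 2, 3 to 9, 10 to 29 and 30 or more Rspo3 UMIs, holding 3225, 304, 278, 216 and 127 cells, and the bands of 1 to 2 and 3 to 9 are in neither group compared so far. In both of these bands all 12 highest and all 12 lowest named genes lay between the reference and the Rspo3-high level, and 8 and 4 of them were in order over all 5 bands. The median depth was 24914, 29436.5, 27135.5, 27975.5 and 29018 UMIs over the bands. The share of cells in cluster 5 was 7.13, 12.5, 14.7, 27.8 and 38.6%, and in cluster 4 it was 18.1, 4.61, 4.68, 2.78 and 1.57%. The part of clusters in the order of the bands was not tested. Slc16a3 stood at 36.1, 42.7, 52.2, 63.1 and 74.9 CPM over the bands, and Klf5 at 18.1, 21.4, 23.7, 30.1 and 42.05 CPM. Cebpd stood at 263, 159, 154, 96.8 and 91.0 CPM, in the opposite order. Mgp stood at 568, 246, 145 and 67.3 CPM in the first 4 bands, at 126 CPM in the last and at 67.8 CPM there without the 1 cell of 235 Mgp UMIs. For Aspn the bands of 1 to 2 and 3 to 9, at 41.5 and 42.3 CPM, overlapped in their intervals.

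Axin2 stood at 0.90, 0.94, 1.79 and 1.77 CPM in the first 4 bands and at 5.19 CPM (3.22 to 7.94) in cells with 30 or more Rspo3 UMIs. Apcdd1 stood at 3.098, 3.15, 5.12 and 4.72 CPM and then at 14.3 CPM (10.9 to 18.5). Wnt5a stood at 19.5, 19.2, 23.3, 25.7 and 39.8 CPM. Lgr4 and Znrf3 had 6.05 and 6.21 CPM in the first band and 4.95 and 5.69 CPM in the last.

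**Figure D5:**
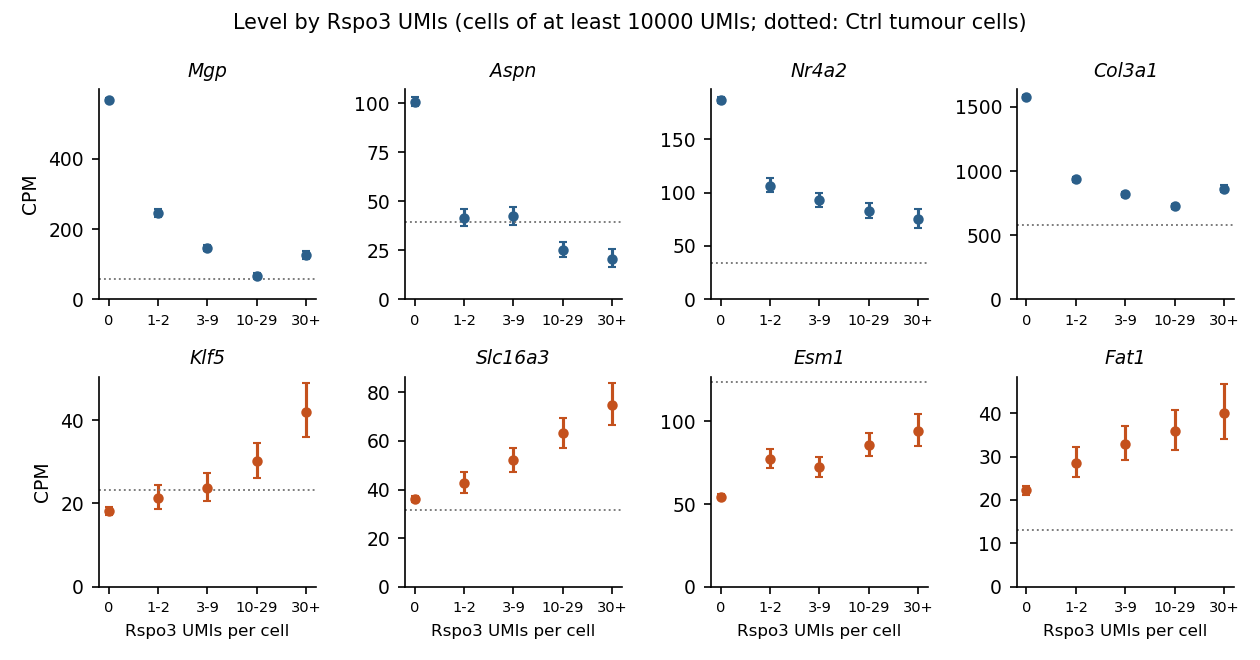
Level in CPM of 8 named genes in tumour cells grouped by their number of Rspo3 UMIs, with exact 95% counting intervals and the level in Ctrl tumour cells as a dotted line. The genes were chosen from the comparison of 0 with 10 or more Rspo3 UMIs, and in the bands of 1 to 2 and 3 to 9 each lies between its levels in those groups.

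Levels in Ctrl tumour cells lay on either side. For Mgp, Nr4a2, Nr4a1 and Ccl7 the Rspo3-high cells lay nearer to Ctrl than the reference did, and for Fat1 and Slc16a3 farther from it. Lama4, a laminin chain, stood at 8.76 CPM in Rspo3-high cells, 23.6 in the reference and 0.46 in Ctrl. Krt8 and Itgb4, an integrin chain, were far above Ctrl in both groups of the RSPO3-OE library, Itgb4 at 42.9 and 48.5 against 4.34 CPM. For Krt8 this did not hold in cluster 4, which stood at 84.2 CPM beside 89.3 in Ctrl. The other clusters stood at 469 to 914 CPM of Krt8. Has1, a hyaluronan synthase, stood at 52.8, 73.7 and 2.23 CPM. These Ctrl values come from a single other library, so genotype and library cannot be told apart.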

How the data were processed

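Droplet single-cell libraries of tumour tissue were analysed, 1 per genotype in the labels. The deposited matrices are raw counts of UMIs, which the authors obtained with Cell Ranger 3.0.1 from 10x 3' libraries, per the labels, on build mm10, per the submitters' processing notes. The matrix header names software 3.1.0. They held 155615189 UMIs in 7314 RSPO3-OE barcodes and 143881763 in 7301 Ctrl barcodes, already called as cells. Kept were barcodes of at least 200 genes and at most 20% mitochondrial UMIs, which removed 150 and 311. Since UMIs are counted, amplification copies are collapsed.

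The tumour rule, the limit of 10 Rspo3 UMIs, the gene lists and the alternatives were chosen with earlier results of these data known, so nothing here is independent support for them. Scrublet (scanpy 1.11.5, expected rate 0.05) marked 173 (2.41%) and 94 (1.34%) barcodes, which were kept as the rule says and left out in an alternative. UMIs were summed over cells and divided by the sum of all UMIs to give CPM. Log2 ratios have exact binomial, shares exact Clopper-Pearson and levels exact Poisson intervals at 95%. Ratios were described for genes with a mean of at least 5 CPM, and 1.5-fold was the limit for higher or lower. Limits for a count of 0 are 3 counts over the total, and no ratio is given where both sums were at or under 3 UMIs. Depth weighting used bins of 0.25 on the log2 scale of total UMIs. Clusters were made with Leiden (leidenalg 0.10.2) at resolution 0.5, or 1.0 as an alternative. The input was the full counts of each cell, not the thinned ones. Each cell was divided by its own total, brought to a sum of 10000 and put on a log scale, so depth was not equalised by thinning. The settings were 2000 variable genes without Rspo3, 30 principal components and 15 neighbours.

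Named genes were the 12 highest and 12 lowest ratios among genes of at least 20 CPM on average. In the higher group they had at least 0.5 times their level over all kept barcodes and no cell with over 10% of the UMIs, and they differed from the depth-weighted reference by at least 1.25-fold on the same side. Excluded were genes used by the rule, antigen receptor, haemoglobin, ribosomal protein and mitochondrial genes and unnamed models. The text also names members of the lists, and other genes chosen after their values were seen. Of the 12 highest, 1 is counted but its values are not reported here. Positions come from GENCODE vM21, in which 32158 of 32285 gene identifiers were found. The ratios, weights and intervals were tested on simulated data. The software was Python 3.11.15 with scipy 1.17.1, numpy 2.4.6, pandas 2.3.3 and matplotlib 3.10.9.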

Additional observations from a re-analysis of the deposited data

Results flagged for a closer look

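Outside the tumour definition, 50 of the 397 kept RSPO3-OE barcodes with 10 or more Rspo3 UMIs were found, while the Ctrl library had 0 barcodes with that many. These 50 are in no comparison above. Of them 25 had a Ptprc UMI, 23 had no Hmga2 UMI and 16 had 10 or more C1q UMIs, and these sets overlap. The barcodes without either Ptprc or Hmga2 were 21, and 12 were marked as doublets. Together they held 1818 Rspo3 UMIs at a median of 32193 total UMIs.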

How the results depend on the processing

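No paired analysis was possible because each group had 1 library and the labels give no replicate numbers. The share of Rspo3-high cells was 8.24% and stayed within 8.23 to 8.56% with 4 other choices of doublet, Hmga2, mitochondrial and depth limits. The counts of 91 higher and 137 lower genes depended on the processing. With the cluster-weighted reference they were 18 and 20, and with the depth-weighted one the lower count was 71. With cells thinned to 10000 UMIs they were 188 and 361, with cells low in cycle genes 176 and 549, and averaging CPM per cell gave 230 lower genes. The thinned and the low-cycle setting use fewer UMIs by construction. A minimum mean of 1 CPM gave 328 and 341, a minimum of 20 CPM gave 24 and 65, and a limit of 20 Rspo3 UMIs gave 171 higher genes. Median-of-ratios scaling moved every log2 ratio by 0.01. Of the 12 highest named genes 7 kept their side in every alternative and 1 stayed past 1.5-fold, and of the 12 lowest 11 and 2. Of 191 gene ratios, 72 of them past 1.5-fold, side changed for 39 with the cluster-weighted reference and for 25 with cells low in cycle genes. Those past 1.5-fold were, with the first, Adamts1 (0.076), Apod (0.14), Hdgfl3 (-0.26), Omd (0.16), Esm1 (-0.064), Lum (0.24), Mmp9 (-0.16), Nr4a3 (0.19), Ogn (0.26) and Slc16a3 (-0.11), and with the second Ccl5 (-1.64), Hist1h2ae (-0.032) and Hist1h2ap (-0.75). For Lum, Ogn, Nr4a3 and Ccl5 a single cell held 34.3, 15.9, 14.7 and 19.5% of the UMIs of the Rspo3-high group. The cause was not tested. Counting error limits genes such as Axin2, with 33 UMIs in Rspo3-high cells, where the log2 ratio lay between 0.84 and 2.40 over the alternatives.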

Other observations

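Genes of under 20 CPM on average included ratios larger than those of the named higher genes, chosen here after their values were seen. Ccnd2, a D-type cyclin, stood at 21.4 CPM in Rspo3-high cells, 6.70 in the reference and 2.36 in Ctrl tumour cells, a log2 ratio to the reference of 1.67 (1.45 to 1.90). Macrophage barcodes had a Ccnd2 UMI in 64.2% of cases, against 21.9% of Rspo3-high and 8.34% of reference cells. Of its 232 UMIs in Rspo3-high cells 176 lay in cluster 5 and 46 in cluster 6, and with the cluster-weighted reference the log2 ratio was 0.29. Gfra2, a coreceptor for neurturin, stood at 15.5 against 4.86 CPM and 25.7 in Ctrl, and Dkk3, a secreted protein of the Dickkopf family, at 16.1 against 5.49 CPM and 1.95 in Ctrl. Their cluster-weighted log2 ratios were 0.10 and 0.13. Gfra2 passed the mean of 5 CPM only through its level in Rspo3-high cells.

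Some genes stayed past 1.5-fold with the cluster-weighted reference. Gm26802, an unnamed gene model, stood at 16.1 against 5.31 CPM, with a log2 ratio of 1.60 and a cluster-weighted one of 1.20. It was higher in Rspo3-high cells in 7 of 7 clusters, some of them on few UMIs. In cluster 2 it had 6 UMIs in Rspo3-high cells and a log2 ratio of 0.19 (-1.30 to 1.38), and in cluster 4 it had 7 UMIs. Gm3336, also unnamed, passed the mean of 5 CPM only through its level in Rspo3-high cells. It stood at 12.3 against 4.79 CPM and 0.11 in Ctrl, with 1.36 and 1.24. Their levels by Rspo3 band were 5.31, 5.98, 3.93, 11.8 and 23.5 CPM for Gm26802 and 4.79, 3.46, 3.22, 10.8 and 14.8 CPM for Gm3336. Anxa8, an annexin, stood at 21.3 against 13.4 CPM and 1.29 in Ctrl, with 0.66 and 0.81. After thinning, however, an Anxa8 UMI was found in 7.87% of Rspo3-high and 9.80% of reference cells. Of the Anxa8 UMIs of the Rspo3-high group 11.3% came from 1 cell. Letm2 stood at 10.8 against 5.91 CPM, with 0.87 and 0.95. On the lower side Egfr, the epidermal growth factor receptor, stood at 6.08 against 9.502 CPM, with -0.64 and -0.63, and Hhipl1 at 3.96 against 9.02 CPM, with -1.19 and -0.87.

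Genes next to Rspo3 on chromosome 10 did not share its difference. Rnf146, a ubiquitin ligase that degrades axin, stood at 20.8 against 24.2 CPM with a log2 ratio of -0.22 (-0.42 to -0.02). Cenpw, a centromere protein on the other side, stood at 106 against 94.2 CPM with 0.17 (0.08 to 0.26).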
